A study of Mus musculus with 9 samples.

Results

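The cell cycle and DNA replication genes are 42 genes out of 55335 in a table of gene expression in mouse peritoneal macrophages, the phagocytes of the abdominal cavity. They were chosen by symbol, from the G1 cyclins and their kinases through replication licensing to mitosis. Bulk RNA-seq covered 3 groups of 3 libraries, and each library was made from a pool of 3 RNA samples. All cells, those of the LPS group included, received lipopolysaccharide (LPS), a component of the outer membrane of Gram-negative bacteria, at 1 µg/mL for 4 h after 1 h in culture medium. LPS+EtOH cells also received 5% ethanol, LPS+CPZ cells also received 100 µM of an agent that the labels name CPZ without spelling it out, and LPS cells received nothing further. The strain, sex and age of the mice are not given in the sources used here, and neither is the solvent of CPZ. Cells without LPS were not analysed here. The replicate pools are not stated to come from separate animals, so p-values measure the spread between pools only.

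A cell that divides first raises D cyclins, which bind the kinases CDK4 and CDK6. These kinases phosphorylate the retinoblastoma protein RB, which then releases E2F transcription factors. The E2F factors switch on the genes that load the MCM helicase on DNA and copy the chromosomes, and a later wave of genes drives mitosis. INK4 and CIP/KIP proteins inhibit the kinases, and most macrophages of the tissue rest outside the cycle.

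The promoters of replication genes typically carry E2F sites, and those of mitotic genes carry the cell cycle homology region (CHR) with CCAAT boxes. The promoters below belong to the pair of licensing and fork genes and the pair of mitotic genes with the highest levels among those that changed, and to Cdc6, which was added after its values were seen because it rose while the MCM genes fell. They are the 300 bases from 250 before to 50 after the RefSeq gene start on GRCm38.p6, on the gene's strand. Capitals mark E2F (TTTGGCGC, TTTCCCGC, TTTGCCGC or TTTCGCGC), CHR (TTTGAA) and CCAAT on either strand.
Pcna: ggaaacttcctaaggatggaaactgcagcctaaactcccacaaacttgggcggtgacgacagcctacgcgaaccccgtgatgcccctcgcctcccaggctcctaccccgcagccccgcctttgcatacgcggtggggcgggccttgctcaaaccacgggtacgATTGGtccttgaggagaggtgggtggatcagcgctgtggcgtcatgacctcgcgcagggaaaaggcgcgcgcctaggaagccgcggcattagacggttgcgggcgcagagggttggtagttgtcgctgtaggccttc
Mcm6: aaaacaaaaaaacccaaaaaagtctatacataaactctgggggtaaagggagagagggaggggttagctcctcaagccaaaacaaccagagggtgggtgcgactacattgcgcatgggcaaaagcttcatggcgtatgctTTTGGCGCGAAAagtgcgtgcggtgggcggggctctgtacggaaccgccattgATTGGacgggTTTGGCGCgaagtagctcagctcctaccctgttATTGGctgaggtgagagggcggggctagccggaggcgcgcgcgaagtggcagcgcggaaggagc
Cdc6: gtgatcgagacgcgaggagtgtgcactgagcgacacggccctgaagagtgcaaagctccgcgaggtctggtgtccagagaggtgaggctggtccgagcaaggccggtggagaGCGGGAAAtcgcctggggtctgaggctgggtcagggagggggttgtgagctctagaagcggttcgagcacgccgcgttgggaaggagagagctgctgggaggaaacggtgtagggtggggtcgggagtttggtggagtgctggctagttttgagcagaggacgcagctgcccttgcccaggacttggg
Mki67: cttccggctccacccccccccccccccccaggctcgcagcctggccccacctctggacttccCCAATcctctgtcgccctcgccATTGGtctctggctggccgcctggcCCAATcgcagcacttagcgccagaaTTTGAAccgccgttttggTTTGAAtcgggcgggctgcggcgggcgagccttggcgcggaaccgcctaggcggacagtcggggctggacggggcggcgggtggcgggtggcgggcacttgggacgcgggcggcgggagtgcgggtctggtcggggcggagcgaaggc
Ccnb2: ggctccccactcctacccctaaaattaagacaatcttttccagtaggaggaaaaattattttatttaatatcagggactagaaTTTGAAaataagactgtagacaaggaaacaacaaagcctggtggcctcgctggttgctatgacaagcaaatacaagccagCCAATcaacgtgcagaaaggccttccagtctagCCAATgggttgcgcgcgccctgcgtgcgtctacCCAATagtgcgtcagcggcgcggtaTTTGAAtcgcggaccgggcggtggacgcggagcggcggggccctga

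These windows lie at chr2:132253131-132253430 for Pcna, chr1:128359656-128359955 for Mcm6, chr7:135716330-135716629 for Mki67 and chr9:70421505-70421804 for Ccnb2, all on the minus strand, and at chr11:98907901-98908200 on the plus strand for Cdc6. The Mcm6 promoter held 3 E2F matches, of which 2 overlap on opposite strands, and 2 CCAAT matches. Cdc6 had 1 E2F match, and Pcna had 1 CCAAT match and no E2F match in this window. Mki67 and Ccnb2 each held 2 CHR and 3 CCAAT matches. RefSeq promoters were found for 34 of the 42 genes, 39 promoters in all. An E2F match was present in 25.6% of the 39, against 2.26% of the 32851 promoters in the table, and in 6 of the 9 promoters of licensing and fork genes. CHR occurred in 25.6% of the 39, against 17.9% of the whole table, and in 4 of the 5 promoters of the genes of mitotic entry and chromosome structure. CCAAT, the shortest of these motifs, occurred in 66.7% of the 39, against 37.4% of the whole table. A match describes letters in a window and is not a site shown to be bound.

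Total FPKM per library (fragments scaled by transcript length and by mapped fragments of the library) ranged from 302126 to 363356. Between 8024 and 8366 genes reached 1 FPKM in LPS+EtOH, 10135 to 10625 in LPS+CPZ and 11096 to 11266 in LPS. The adult globin genes of red cells took 0.172 to 0.221% of all FPKM in LPS+EtOH, 0.0452 to 0.0972% in LPS+CPZ and 11.5 to 29.4% in LPS. FPKM are shares of a library, so an abundant class of transcripts lowers all other values. The macrophage markers Adgre1, Csf1r, Cd68, Lyz2 and Cd14 stood at 14.2 FPKM or more in all 9 libraries, but Mertk reached no more than 0.316 FPKM in any library. Fcgr1 averaged 0.116 FPKM in LPS+EtOH. Markers of other cells were present too, and LPS replicate 3 stood apart from the other LPS libraries in globin (29.4%, against 16.7 and 11.5% in replicates 1 and 2) and in the neutrophil granule gene Ngp (131 FPKM, against 4.62 and 5.56 FPKM). The 7 neutrophil markers summed to 43287 to 47867 FPKM in LPS+EtOH, 6276 to 6749 FPKM in LPS+CPZ and 3703 to 5274 FPKM in LPS. Most of these sums was S100a8 and S100a9. The neutrophil marker Ly6g averaged 156 FPKM in LPS+EtOH, 274 FPKM in LPS+CPZ and 16.9 FPKM in LPS. As deposited, 1 of the 7 rose and 6 fell in LPS+CPZ against LPS+EtOH. The 6 B cell markers summed to 36.1 to 56.3 FPKM in LPS+EtOH, 142 to 190 FPKM in LPS+CPZ and 461 to 695 FPKM in LPS.

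Of the 42 genes, 27 reached 1 FPKM in at least 3 libraries and were tested with limma on log2(FPKM + 1), with Benjamini-Hochberg adjustment over all 11721 genes tested. The other 15 lay between 0 and 1.35 FPKM in all libraries. In LPS+EtOH against LPS, 7 of the 27 rose and 18 fell. Of all genes tested, 19.0% rose and 64.6% fell in that comparison. The median log2 change was -1.07 over the 27 and -0.82 over all genes tested. In LPS+CPZ against LPS, 3 of the 27 rose and 17 fell, whereas 20.7% of all genes rose and 48.4% fell. The median log2 change was -0.52 over the 27 and -0.33 over all genes. Both comparisons use the same 3 LPS libraries, so they are not independent. In LPS+CPZ against LPS+EtOH, 12 of the 27 rose and 6 fell, whereas 61.4% of all genes rose and 15.2% fell, and the median log2 change was 0.30 over the 27 and 0.55 over all genes. The share of falls in LPS+EtOH against LPS, 66.7% of the 27, is near that of all genes and is no result about these genes. The share of falls in LPS+CPZ against LPS was 63.0% of the 27, and in LPS+CPZ against LPS+EtOH 44.4% rose and 22.2% fell. A gene that passed the filter through a single high group was likely to differ, and the counts cover the tested genes only. Among the 27 this concerns Cdc6, which passed through LPS+EtOH, and Rrm1 and Top2a, which passed through LPS.

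Because the median of all tested genes was not at 0, a second scaling was set beside the deposited one. Median-ratio scaling sets the typical gene level across libraries and brought the median of all genes to -0.08 in LPS+EtOH against LPS, -0.08 in LPS+CPZ against LPS and 0.08 in LPS+CPZ against LPS+EtOH. Under it, 9 of the 27 rose and 13 fell in LPS+EtOH against LPS, where 37.8% of all genes rose and 42.1% fell. In LPS+CPZ against LPS, 4 rose and 12 fell, where 27.6% of all genes rose and 34.1% fell. In LPS+CPZ against LPS+EtOH, 4 rose and 13 fell, where 35.6% of all genes rose and 31.5% fell, so the split of this comparison turned round. None of the 27 genes was called in opposite directions by the scalings. All 7 genes that rose in LPS+EtOH against LPS and 13 of the 18 that fell were called the same way by both, and the falls called as deposited alone were those of Ccne1, Cdk6, E2f2, Mcm2 and Pcna. Of the calls in LPS+CPZ against LPS, this held for all 3 that rose and for 12 of the 17 that fell, the others being Ccnd3, Cdk4, Rb1, Mcm7 and Pcna. Of the calls in LPS+CPZ against LPS+EtOH it held for 4 of the 12 that rose (Cdk4, Cdk6, Rb1 and Mcm7) and for all 6 that fell (Ccnd3, Cdkn2d, E2f2, Cdc6, Mki67 and Plk3).

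**Figure D1:**
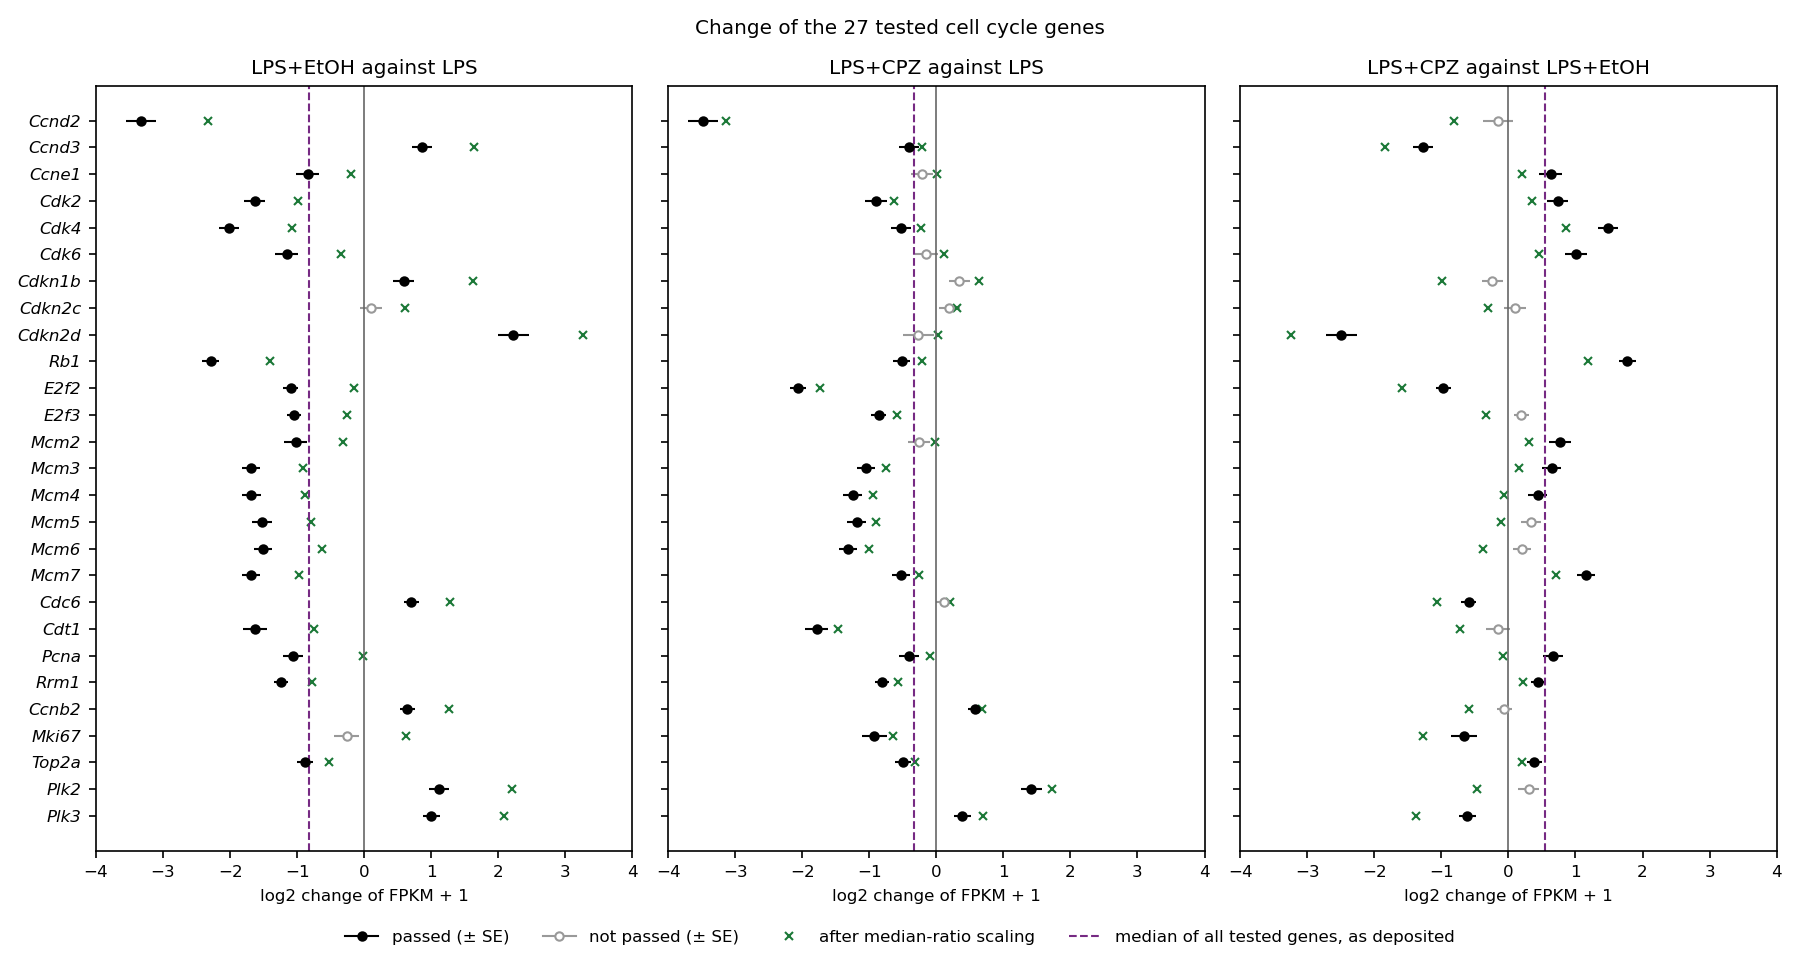
Log2 change of the 27 tested genes in each comparison on the log2(FPKM + 1) scale, each panel being 1 comparison. Black circles (± SE) passed the threshold, open grey circles did not, green crosses give the value after median-ratio scaling, and the dashed line marks the median of all tested genes (-0.82, -0.33 and 0.55 by panel). Ccnd2 lies far to the left in both panels against LPS, and Cdkn2d lies far to the right for LPS+EtOH against LPS and far to the left for LPS+CPZ against LPS+EtOH.

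Among the G1 genes, the D cyclins moved apart. Ccnd2, which made up nearly all D cyclin RNA in LPS cells, fell in both treated groups, while Ccnd3 rose with ethanol. The kinases Cdk4, Cdk6 and Cdk2 fell in LPS+EtOH, where the fall of Cdk6 was not called under median-ratio scaling. Cdk4 and Cdk2 fell in LPS+CPZ as well, and the fall of Cdk4 there was not called under median-ratio scaling.

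Ccnd2, a D cyclin that activates CDK4 and CDK6, had 5.24, 5.20 and 3.88 FPKM in LPS+EtOH, 3.70, 5.81 and 3.29 FPKM in LPS+CPZ and 41.7, 72.3 and 59.3 FPKM in LPS. The LPS libraries lay above all 6 others, and the treated groups overlapped with each other. Its level was 12.1 times lower in LPS+EtOH than in LPS and 13.5 times lower in LPS+CPZ than in LPS. The limma log2 change was -3.32 ± 0.22 (SE, adjusted p = 2.64e-07) in LPS+EtOH against LPS and -3.48 ± 0.22 (adjusted p = 6.42e-07) in LPS+CPZ against LPS. Between LPS+CPZ and LPS+EtOH its log2 change was -0.15 (adjusted p = 0.544) as deposited and -0.81 (adjusted p = 0.00582) under median-ratio scaling. In bulk RNA, fewer cells of a type and less RNA per cell cannot be told apart, and this holds for every gene described here.

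Ccnd3, another D cyclin, had 3.72, 2.91 and 4.24 FPKM in LPS+EtOH, 1.07, 1.10 and 0.582 FPKM in LPS+CPZ and 1.34, 1.62 and 1.61 FPKM in LPS. The 3 groups did not overlap, with LPS+EtOH highest and LPS+CPZ lowest. The log2 change was 0.86 ± 0.15 (adjusted p = 2.45e-04) in LPS+EtOH against LPS and -1.27 ± 0.15 (adjusted p = 2.73e-05) in LPS+CPZ against LPS+EtOH. Ccnd3 in LPS+CPZ against LPS had a log2 change of -0.40 (adjusted p = 0.0314), a call that was lost without LPS+CPZ replicate 3 (-0.27), without LPS replicate 2 (-0.38) or 3 (-0.38), and under median-ratio scaling (-0.21). Ccnd1, the third D cyclin, stayed between 0.0603 and 0.396 FPKM in all 9 libraries and was not tested. As a share of the summed FPKM of the 3 D cyclins, Ccnd2 made up 55.3 ± 7.32% in LPS+EtOH, 80.6 ± 3.54% in LPS+CPZ and 96.8 ± 0.651% in LPS (SD, n = 3). The shares of Ccnd3 were 42.2 ± 8.67% in LPS+EtOH, 17.5 ± 4.10% in LPS+CPZ and 2.64 ± 0.453% in LPS. These shares do not depend on how libraries are scaled, and the groups did not overlap in either.

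**Figure D2:**
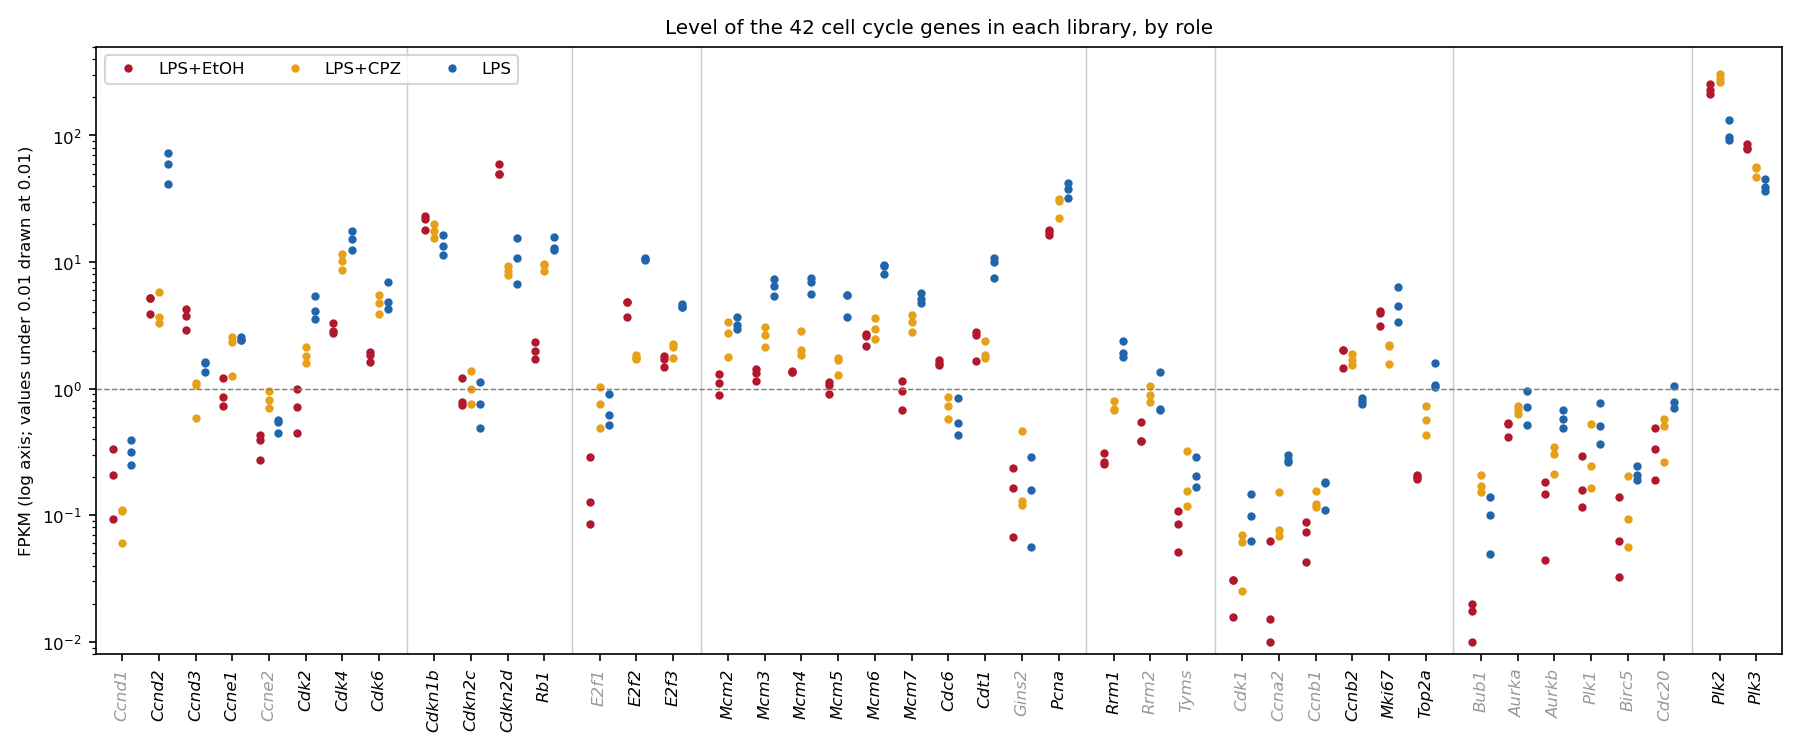
FPKM of the 42 genes on a log axis, by role, with 1 dot per library (LPS+EtOH red, LPS+CPZ yellow, LPS blue). The dashed line is at 1 FPKM, grey names were not tested, and values of 0 are drawn at the foot of the axis. The mitotic genes lie mostly under the line, while Plk2 and Plk3 lie at the top, between 36.5 and 305 FPKM.

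Cdk4, the kinase bound by D cyclins, had 3.28, 2.88 and 2.76 FPKM in LPS+EtOH, 8.65, 10.2 and 11.6 FPKM in LPS+CPZ and 12.5, 17.7 and 15.2 FPKM in LPS. The groups did not overlap and LPS+EtOH was lowest. Cdk4 had a log2 change of -2.01 ± 0.15 (adjusted p = 4.45e-07) in LPS+EtOH against LPS, -0.53 ± 0.15 (adjusted p = 0.00852) in LPS+CPZ against LPS and 1.48 ± 0.15 (adjusted p = 1e-05) in LPS+CPZ against LPS+EtOH. Under median-ratio scaling the change in LPS+CPZ against LPS was -0.23 and was not called. Cdk2, the kinase that acts with E and A cyclins, had 0.997, 0.445 and 0.717 FPKM in LPS+EtOH, 1.59, 2.12 and 1.83 FPKM in LPS+CPZ and 5.37, 3.55 and 4.10 FPKM in LPS. Here too the groups stood apart in the same order. Cdk2 changed by -1.63 (adjusted p = 3.21e-06) in LPS+EtOH against LPS, by -0.90 (adjusted p = 5.40e-04) in LPS+CPZ against LPS and by 0.73 (adjusted p = 0.00169) in LPS+CPZ against LPS+EtOH, the last not called under median-ratio scaling (0.35).

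Cdk6, the second partner of D cyclins, had 1.86, 1.61 and 1.96 FPKM in LPS+EtOH, 5.49, 4.71 and 3.87 FPKM in LPS+CPZ and 6.998, 4.88 and 4.22 FPKM in LPS. LPS+EtOH lay below both other groups, which overlapped. Cdk6 had a log2 change of -1.16 (adjusted p = 7.19e-05) in LPS+EtOH against LPS, but -0.34 (adjusted p = 0.0980) under median-ratio scaling. Cdk6 in LPS+CPZ against LPS+EtOH had a log2 change of 1.01 (adjusted p = 3.06e-04). Ccne1, the cyclin E that activates CDK2 at the start of DNA synthesis, had 1.22, 0.866 and 0.732 FPKM in LPS+EtOH, 1.26, 2.32 and 2.56 FPKM in LPS+CPZ and 2.40, 2.43 and 2.56 FPKM in LPS. The LPS+EtOH libraries lay below both other groups, which overlapped. Ccne1 had a log2 change of -0.85 (adjusted p = 7.52e-04) in LPS+EtOH against LPS and 0.63 (adjusted p = 0.00591) in LPS+CPZ against LPS+EtOH, and neither was called under median-ratio scaling (-0.19 and 0.20). Ccne2, the second cyclin E, ranged from 0.272 to 0.950 FPKM and was not tested.

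Among the kinase inhibitors, Cdkn2d set LPS+EtOH apart from both other groups, and Rb1 moved against it. Cdkn2d encodes the INK4 inhibitor p19-INK4d, which blocks CDK4 and CDK6. It had 59.2, 49.5 and 49.3 FPKM in LPS+EtOH, 8.52, 9.23 and 7.87 FPKM in LPS+CPZ and 15.6, 6.73 and 10.7 FPKM in LPS. Every LPS+EtOH library was above every other library, and LPS+CPZ lay within the range of LPS. The level was 4.78 times higher in LPS+EtOH than in LPS, with a log2 change of 2.22 ± 0.23 (adjusted p = 4.69e-06). Cdkn2d in LPS+CPZ against LPS+EtOH had a log2 change of -2.49 ± 0.23 (adjusted p = 6.15e-06). Cdkn2d in LPS+CPZ against LPS had a log2 change of -0.27 (adjusted p = 0.318), and -0.55 (adjusted p = 0.0184) without LPS replicate 2, the lowest LPS library. Within each library, Cdkn2d stood to Cdk4 at a ratio of 17.7 ± 0.438 in LPS+EtOH, 0.856 ± 0.161 in LPS+CPZ and 0.777 ± 0.439 in LPS (SD, n = 3).

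Rb1, which encodes the retinoblastoma protein, had 1.999, 1.72 and 2.33 FPKM in LPS+EtOH, 9.72, 9.52 and 8.55 FPKM in LPS+CPZ and 12.6, 12.9 and 15.8 FPKM in LPS. The groups did not overlap, with LPS+EtOH 6.83 times lower than LPS. Rb1 had a log2 change of -2.29 ± 0.13 (adjusted p = 9.78e-08) in LPS+EtOH against LPS and 1.77 ± 0.13 (adjusted p = 1.44e-06) in LPS+CPZ against LPS+EtOH. Rb1 in LPS+CPZ against LPS had a log2 change of -0.52 (adjusted p = 0.00407) as deposited and -0.22 (adjusted p = 0.133) under median-ratio scaling. Cdkn1b, the CIP/KIP inhibitor p27, had 23.3, 17.9 and 21.8 FPKM in LPS+EtOH, 19.9, 17.5 and 15.4 FPKM in LPS+CPZ and 13.3, 11.4 and 16.4 FPKM in LPS. LPS+EtOH lay above LPS, and LPS+CPZ overlapped with both. The log2 change in LPS+EtOH against LPS was 0.59 (adjusted p = 0.00504). With the globin genes left out and the rest rescaled it was 0.30 (adjusted p = 0.179), and under median-ratio scaling 1.62 (adjusted p = 5.00e-06). Cdkn1b in LPS+CPZ against LPS had a log2 change of 0.35 (adjusted p = 0.0734), 0.47 (adjusted p = 0.0263) without LPS replicate 3, and 0.64 (adjusted p = 0.00472) under median-ratio scaling. Cdkn2c, the INK4 inhibitor p18, ranged from 0.489 to 1.37 FPKM over the 9 libraries, with overlap between all groups and log2 changes of 0.10 to 0.20 in the 3 comparisons, none past the threshold. Under median-ratio scaling Cdkn2c had 0.61 (adjusted p = 0.00243) in LPS+EtOH against LPS.

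**Figure D3:**
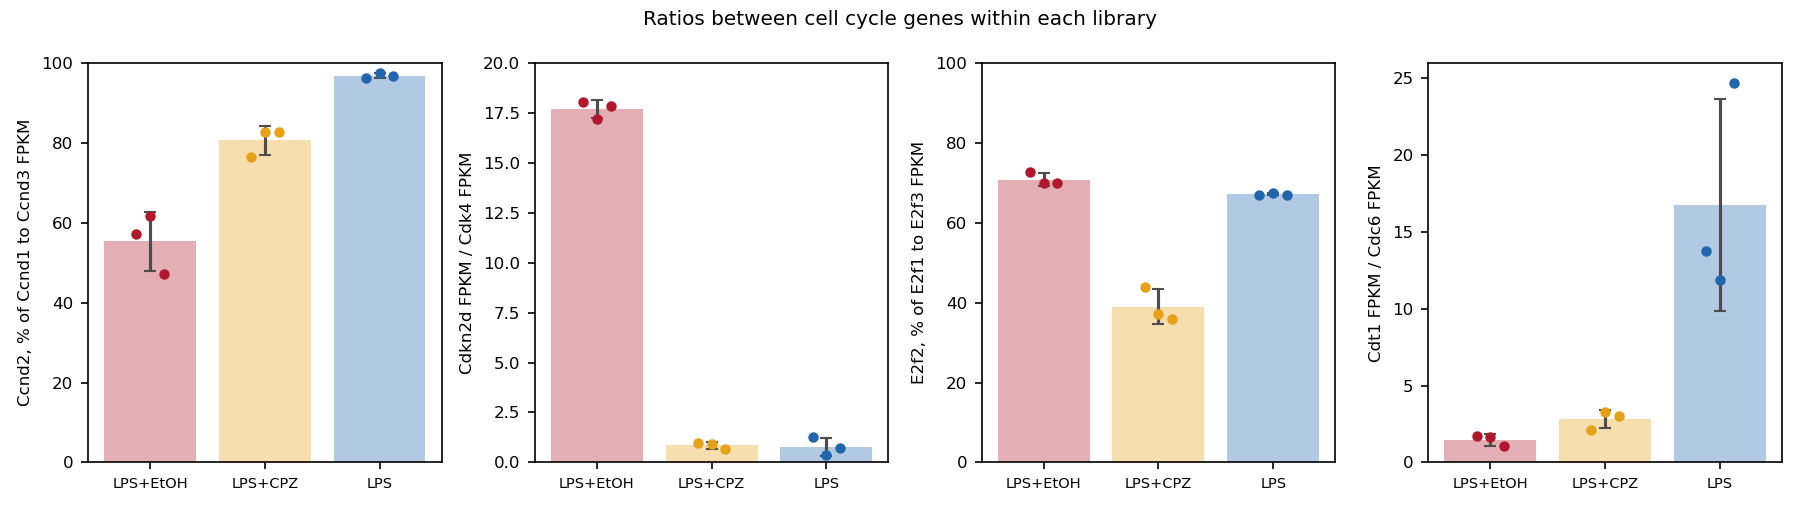
Ratios between genes within each library, with 1 dot per library, bars for the mean and error bars for the SD (n = 3). From left to right the axes give the share of Ccnd2 in D cyclin FPKM (%), Cdkn2d over Cdk4, the share of E2f2 in E2F activator FPKM (%) and Cdt1 over Cdc6. Cdkn2d over Cdk4 is near 17.7 in LPS+EtOH and at most 1.25 in all other libraries.

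The E2F activators bind E2F sites of the kind printed above and switch on replication genes. E2f2 was lowest in LPS+CPZ. It had 4.86, 3.66 and 4.84 FPKM in LPS+EtOH, 1.74, 1.73 and 1.84 FPKM in LPS+CPZ and 10.5, 10.5 and 10.8 FPKM in LPS. No groups overlapped, and the libraries of LPS+CPZ and of LPS each lay close together. Its log2 change was -2.07 ± 0.12 (adjusted p = 2.74e-07) in LPS+CPZ against LPS and -0.97 ± 0.12 (adjusted p = 3.27e-05) in LPS+CPZ against LPS+EtOH, both called under median-ratio scaling as well (-1.74 and -1.59). In LPS+EtOH against LPS it was -1.10 (adjusted p = 6.07e-06) as deposited but -0.14 (adjusted p = 0.212) under median-ratio scaling.

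E2f3 had 1.71, 1.48 and 1.80 FPKM in LPS+EtOH, 1.73, 2.15 and 2.26 FPKM in LPS+CPZ and 4.64, 4.43 and 4.44 FPKM in LPS. The LPS libraries were above all others, and the treated groups overlapped. Its log2 change was -1.05 (adjusted p = 5.38e-06) in LPS+EtOH against LPS and -0.86 (adjusted p = 6.00e-05) in LPS+CPZ against LPS. Between LPS+CPZ and LPS+EtOH E2f3 had 0.19 (adjusted p = 0.133), and -0.33 (adjusted p = 0.0134) under median-ratio scaling. E2f1 was not tested, with 0.126, 0.0857 and 0.289 FPKM in LPS+EtOH, 0.489, 0.761 and 1.03 FPKM in LPS+CPZ and 0.521, 0.624 and 0.911 FPKM in LPS. E2f2 made up 70.8 ± 1.53% of the summed FPKM of the 3 activators in LPS+EtOH, 39.0 ± 4.32% in LPS+CPZ and 67.1 ± 0.304% in LPS (SD, n = 3). LPS+CPZ stood apart in that share, where no library exceeded 44.0%, against at least 67.0% in every other library.

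Replication licensing loads the ring of Mcm2 to Mcm7, the core of the replicative helicase, onto DNA with the help of Cdc6 and Cdt1. All 6 MCM genes fell in LPS+EtOH against LPS, where 64.6% of all genes tested fell. All but Mcm2 were called under median-ratio scaling too, where 42.1% of all genes fell. In LPS+CPZ against LPS 5 of the 6 fell, 4 of them also under median-ratio scaling, and Mcm2 was called only with the globin genes left out (-0.50, adjusted p = 0.0214). Of all genes, 48.4% fell in that comparison as deposited and 34.1% under median-ratio scaling. Cdc6 went the other way in LPS+EtOH, where it rose while Cdt1 fell. Only its LPS+EtOH libraries reached 1 FPKM, so that call was likely from the filter alone. The mean of the 6 MCM genes was 1.37 ± 0.0619 FPKM in LPS+EtOH, 2.56 ± 0.466 FPKM in LPS+CPZ and 5.90 ± 0.714 FPKM in LPS (SD, n = 3).

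Mcm6, whose promoter is printed above, had 2.68, 2.16 and 2.59 FPKM in LPS+EtOH, 2.45, 3.63 and 2.97 FPKM in LPS+CPZ and 7.98, 9.50 and 9.34 FPKM in LPS. The LPS libraries lay above all others and the treated groups overlapped. Mcm6 had a log2 change of -1.52 ± 0.14 (adjusted p = 1.65e-06) in LPS+EtOH against LPS and -1.31 ± 0.14 (adjusted p = 1.38e-05) in LPS+CPZ against LPS. Between LPS+CPZ and LPS+EtOH it was 0.20 (adjusted p = 0.193), and -0.38 (adjusted p = 0.00952) under median-ratio scaling. Mcm3 had 1.32, 1.14 and 1.43 FPKM in LPS+EtOH, 2.13, 3.05 and 2.64 FPKM in LPS+CPZ and 5.43, 7.40 and 6.52 FPKM in LPS. Mcm4 had 1.35, 1.39 and 1.36 FPKM in LPS+EtOH, 2.01, 2.85 and 1.83 FPKM in LPS+CPZ and 5.63, 6.90 and 7.42 FPKM in LPS. Both were ordered alike, with LPS+EtOH lowest, LPS highest and no overlap between groups. Their log2 changes in LPS+EtOH against LPS were -1.69 for Mcm3 and -1.68 for Mcm4. The values in LPS+CPZ against LPS were -1.05 for Mcm3 and -1.25 for Mcm4, and these 4 falls were also called under median-ratio scaling.

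Mcm5 had 0.906, 1.07 and 1.13 FPKM in LPS+EtOH, 1.29, 1.75 and 1.67 FPKM in LPS+CPZ and 3.70, 5.50 and 5.54 FPKM in LPS. The groups stood apart in the order of Mcm3 and Mcm4. It changed by -1.53 (adjusted p = 2.78e-06) in LPS+EtOH against LPS and by -1.19 (adjusted p = 4.55e-05) in LPS+CPZ against LPS, and its log2 change was 0.34 (adjusted p = 0.0564) in LPS+CPZ against LPS+EtOH. That last value passed the threshold without LPS replicate 1 (adjusted p = 0.0187) or without LPS+CPZ replicate 1 (0.42, adjusted p = 0.0386), and was -0.11 under median-ratio scaling. Mcm7 had 0.682, 0.959 and 1.16 FPKM in LPS+EtOH, 2.78, 3.36 and 3.81 FPKM in LPS+CPZ and 4.75, 5.14 and 5.70 FPKM in LPS. LPS+CPZ lay nearer to LPS for this subunit. Mcm7 had a log2 change of -1.69 (adjusted p = 7.97e-07) in LPS+EtOH against LPS, -0.53 (adjusted p = 0.00543) in LPS+CPZ against LPS and 1.16 (adjusted p = 2.74e-05) in LPS+CPZ against LPS+EtOH. Under median-ratio scaling the middle value was -0.26 (adjusted p = 0.130). Mcm2 had 1.31, 1.10 and 0.893 FPKM in LPS+EtOH, 1.78, 3.38 and 2.76 FPKM in LPS+CPZ and 2.98, 3.67 and 3.16 FPKM in LPS. LPS+CPZ overlapped with LPS, while LPS+EtOH lay below both. Mcm2 had a log2 change of -1.02 (adjusted p = 1.56e-04) in LPS+EtOH against LPS, -0.32 (adjusted p = 0.0690) under median-ratio scaling, and -0.25 (adjusted p = 0.196) in LPS+CPZ against LPS.

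Several of the MCM rises in LPS+CPZ against LPS+EtOH depended on the scaling. As deposited, Mcm2 (0.77), Mcm3 (0.65), Mcm4 (0.44) and Mcm7 (1.16) rose. Under median-ratio scaling Mcm7 rose by 0.71 (adjusted p = 0.00119), and the values were 0.30 for Mcm2, 0.15 for Mcm3 and -0.06 for Mcm4, not past the threshold. Without LPS+CPZ replicate 2, the highest LPS+CPZ library for Mcm4, the value of Mcm4 was 0.30 (adjusted p = 0.0715).

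**Figure D4:**
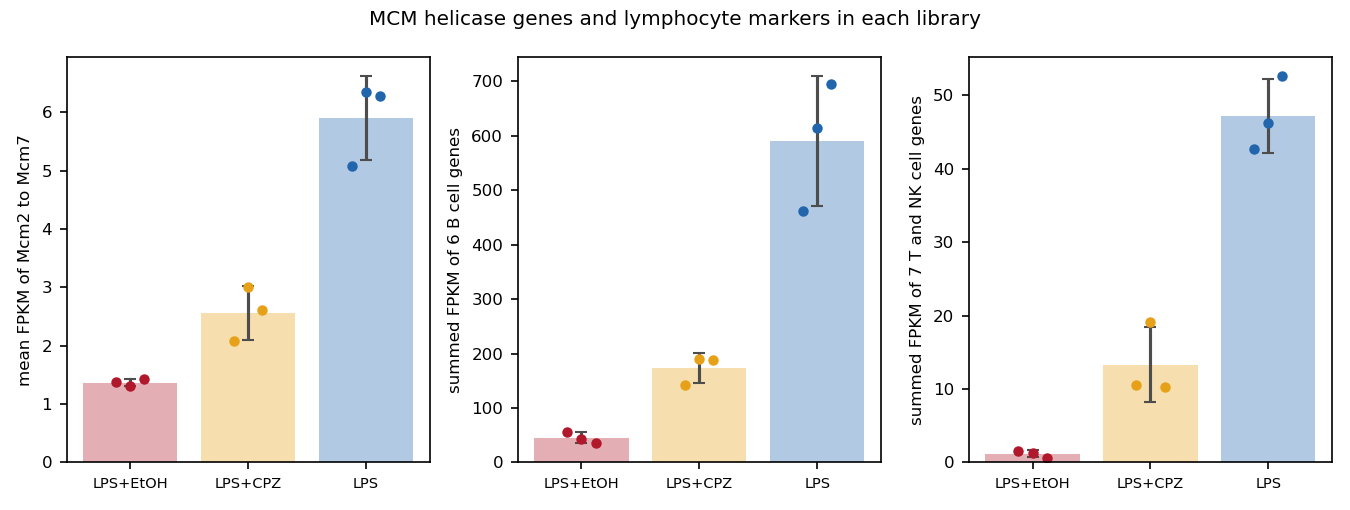
Mean FPKM of Mcm2 to Mcm7 (left), summed FPKM of 6 B cell genes (middle) and of 7 T and NK cell genes (right), with 1 dot per library, bars for the mean and error bars for the SD (n = 3). All 3 are lowest in LPS+EtOH, between in LPS+CPZ and highest in LPS, with no overlap between groups.

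Among the marker sums, those of B cells and of T and NK cells had the group order of the MCM mean. The sums of neutrophil, macrophage, red blood cell precursor and mast cell markers did not. Of all genes tested, 19.0% rose and 64.6% fell in LPS+EtOH against LPS, and 20.7% rose and 48.4% fell in LPS+CPZ against LPS. All 6 B cell markers fell in LPS+EtOH against LPS, with log2 changes of -4.62 to -2.61, and all 6 fell in LPS+CPZ against LPS, with log2 changes of -2.66 to -1.44. All 6 tested markers of T and NK cells fell in both comparisons, and the 7 listed summed to 0.640 to 1.62 FPKM in LPS+EtOH, 10.2 to 19.2 FPKM in LPS+CPZ and 42.7 to 52.6 FPKM in LPS. In LPS+EtOH, Cd3e, Trbc2, Ncr1 and Nkg7 were each listed at 0 in at least 1 library. All 7 neutrophil markers rose in LPS+EtOH against LPS, and 3 rose and 1 fell in LPS+CPZ against LPS. Median-ratio scaling gave the same counts for the B cell and neutrophil markers, and 6 and 5 falls for the T and NK cell markers. Of the 7 tested macrophage markers, 2 rose and 4 fell in each of these comparisons as deposited, and 57.1% falls is near the share of all genes. The split of the macrophage markers depended on the scaling, since with median-ratio scaling 4 rose and 2 fell in LPS+EtOH against LPS and 3 rose and 3 fell in LPS+CPZ against LPS. The 8 macrophage markers listed summed to 2662 to 2989 FPKM in LPS+EtOH, 1056 to 1233 FPKM in LPS+CPZ and 1591 to 2046 FPKM in LPS. Most of the sum in LPS+EtOH was Cd14, which averaged 2177 FPKM there, 406 FPKM in LPS+CPZ and 907 FPKM in LPS. Lyz2 averaged 226 FPKM in LPS+EtOH, 217 FPKM in LPS+CPZ and 733 FPKM in LPS, so the markers did not share the order of the sums. All 6 red blood cell precursor genes fell in both comparisons, and they summed to 608 to 747 FPKM in LPS+EtOH, 153 to 349 FPKM in LPS+CPZ and 34791 to 107458 FPKM in LPS. Of the 5 mast cell markers, 3 fell in LPS+EtOH against LPS as deposited, a share of 60.0% beside 64.6% of all genes, and with median-ratio scaling none fell and 1 rose. Under both scalings 4 of the 5 fell in LPS+CPZ against LPS. The mast cell markers had sums of 22.6 to 58.7 FPKM in LPS+EtOH, 13.1 to 34.7 FPKM in LPS+CPZ and 49.3 to 90.2 FPKM in LPS. The part of these cells in the levels of the cell cycle genes was not tested.

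Cdt1, which brings the MCM ring to the origin, had 2.63, 2.79 and 1.64 FPKM in LPS+EtOH, 1.84, 2.38 and 1.75 FPKM in LPS+CPZ and 7.43, 9.95 and 10.7 FPKM in LPS. The LPS libraries were above all others. Cdt1 had a log2 change of -1.63 ± 0.17 (adjusted p = 6.51e-06) in LPS+EtOH against LPS and -1.78 ± 0.17 (adjusted p = 9.90e-06) in LPS+CPZ against LPS. Cdt1 in LPS+CPZ against LPS+EtOH had a log2 change of -0.15 (adjusted p = 0.436), and -0.72 (adjusted p = 0.00443) under median-ratio scaling. Cdc6, the ATPase that loads the MCM ring together with Cdt1, had 1.53, 1.67 and 1.58 FPKM in LPS+EtOH, 0.865, 0.731 and 0.579 FPKM in LPS+CPZ and 0.540, 0.838 and 0.433 FPKM in LPS. LPS+EtOH was above both other groups, which overlapped. Cdc6 passed the filter through LPS+EtOH alone, so its p-values are not independent of that choice. Cdc6 had a log2 change of 0.70 ± 0.12 (adjusted p = 1.79e-04) in LPS+EtOH against LPS and -0.59 ± 0.12 (adjusted p = 8.46e-04) in LPS+CPZ against LPS+EtOH, and both were called under median-ratio scaling (1.28 and -1.07). Cdt1 stood to Cdc6 at a ratio of 1.48 ± 0.380 in LPS+EtOH, 2.80 ± 0.593 in LPS+CPZ and 16.8 ± 6.91 in LPS (SD, n = 3), with no overlap between groups.

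Pcna, the sliding clamp of DNA polymerases that also serves in DNA repair, was the most abundant licensing and fork gene. It had 16.5, 17.8 and 17.3 FPKM in LPS+EtOH, 22.4, 30.3 and 31.5 FPKM in LPS+CPZ and 32.3, 41.9 and 37.7 FPKM in LPS. Each group stood apart from the others. As deposited its log2 change was -1.07 (adjusted p = 4.92e-05) in LPS+EtOH against LPS, -0.41 (adjusted p = 0.0310) in LPS+CPZ against LPS and 0.66 (adjusted p = 0.00207) in LPS+CPZ against LPS+EtOH. Under median-ratio scaling these values were -0.01, -0.09 and -0.08 in the same order, none past the threshold. The call in LPS+CPZ against LPS was also lost without LPS+CPZ replicate 1 (-0.26), LPS replicate 2 (-0.32) or LPS replicate 3 (-0.40). Within libraries, Pcna stood to the mean of the 6 MCM genes at a ratio of 12.6 ± 0.928 in LPS+EtOH, 11.0 ± 0.979 in LPS+CPZ and 6.32 ± 0.301 in LPS (SD, n = 3). Every treated library was above every LPS library in that ratio. Gins2, a subunit of the helicase complex that travels with the fork, stayed between 0.0564 and 0.462 FPKM and was not tested.

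Of the genes that supply nucleotides, Rrm1, the large subunit of ribonucleotide reductase, was the one tested. It had 0.263, 0.308 and 0.254 FPKM in LPS+EtOH, 0.682, 0.799 and 0.694 FPKM in LPS+CPZ and 1.79, 1.90 and 2.40 FPKM in LPS. All 3 groups stood apart, and the level was 7.37 times lower in LPS+EtOH than in LPS and 2.80 times lower in LPS+CPZ than in LPS. The log2 change was -1.24 ± 0.10 (adjusted p = 8.63e-07) in LPS+EtOH against LPS and -0.81 ± 0.10 (adjusted p = 5.16e-05) in LPS+CPZ against LPS. It was 0.44 (adjusted p = 0.00256) in LPS+CPZ against LPS+EtOH as deposited and 0.21 (adjusted p = 0.0581) under median-ratio scaling. Rrm1 passed the filter through the LPS libraries alone, so its calls against LPS were likely. Log2(FPKM + 1) understates the change of genes at such low levels. Rrm2, the small subunit, had 0.389, 0.550 and 0.383 FPKM in LPS+EtOH, 0.892, 1.05 and 0.780 FPKM in LPS+CPZ and 0.672, 0.695 and 1.35 FPKM in LPS. Its LPS+CPZ and LPS libraries overlapped, with LPS+EtOH below both. Tyms, thymidylate synthase, stayed between 0.0510 and 0.324 FPKM. Neither was tested.

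Of the 12 mitotic genes, 3 were expressed well enough to test, namely Mki67, Top2a and Ccnb2, and in LPS+EtOH against LPS Top2a fell and Ccnb2 rose. Mki67, the source of the proliferation marker Ki-67, had 4.13, 3.93 and 3.10 FPKM in LPS+EtOH, 2.21, 2.16 and 1.57 FPKM in LPS+CPZ and 6.38, 3.36 and 4.53 FPKM in LPS. LPS+CPZ was below both other groups, and LPS+EtOH overlapped with LPS. The log2 change of Mki67 was -0.92 ± 0.19 (adjusted p = 0.00134) in LPS+CPZ against LPS and -0.66 ± 0.19 (adjusted p = 0.00822) in LPS+CPZ against LPS+EtOH. In LPS+EtOH against LPS it was -0.26 (adjusted p = 0.218) as deposited, -0.44 (adjusted p = 0.0406) without LPS replicate 2, and 0.62 (adjusted p = 0.0139) under median-ratio scaling, so its sign changed with the scaling. Top2a, the topoisomerase that untangles sister chromosomes, had 0.199, 0.209 and 0.193 FPKM in LPS+EtOH, 0.428, 0.727 and 0.565 FPKM in LPS+CPZ and 1.02, 1.08 and 1.58 FPKM in LPS. The groups did not overlap, with LPS+EtOH lowest. Top2a passed the filter through the LPS libraries alone, so its calls against LPS were likely. The log2 change of Top2a was -0.88 (adjusted p = 3.17e-05) in LPS+EtOH against LPS and -0.50 (adjusted p = 0.00306) in LPS+CPZ against LPS. Mki67 stood to Top2a at a ratio of 18.5 ± 2.34 in LPS+EtOH, 3.64 ± 1.33 in LPS+CPZ and 4.07 ± 1.88 in LPS (SD, n = 3), with LPS+EtOH above all other libraries.

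Ccnb2, a B cyclin that activates the mitotic kinase CDK1, had 1.44, 2.001 and 2.03 FPKM in LPS+EtOH, 1.55, 1.87 and 1.68 FPKM in LPS+CPZ and 0.849, 0.759 and 0.796 FPKM in LPS. Both treated groups were above LPS and overlapped with each other. Ccnb2 had a log2 change of 0.64 ± 0.11 (adjusted p = 2.88e-04) in LPS+EtOH against LPS and 0.58 ± 0.11 (adjusted p = 9.62e-04) in LPS+CPZ against LPS, and both were also called under median-ratio scaling (1.27 and 0.68). Between LPS+CPZ and LPS+EtOH the value was -0.06 (adjusted p = 0.631), and -0.59 (adjusted p = 0.00192) under median-ratio scaling. Its partner Cdk1 and the other B cyclin Ccnb1 did not share that level. Cdk1 lay between 0.0157 and 0.147 FPKM and Ccnb1 between 0.0423 and 0.183 FPKM over the 9 libraries. Ccna2, the A cyclin of S phase and mitosis, was listed at 0 in 1 LPS+EtOH library and had at most 0.0623 FPKM in that group, 0.0680 to 0.152 FPKM in LPS+CPZ and 0.264 to 0.298 FPKM in LPS.

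None of the 6 mitotic kinase and checkpoint genes reached the level for testing. Bub1, a kinase of the spindle checkpoint, had 0.020, 0 and 0.0176 FPKM in LPS+EtOH, 0.153, 0.170 and 0.206 FPKM in LPS+CPZ and 0.139, 0.0493 and 0.0997 FPKM in LPS. The mitotic kinases Aurka (0.417 to 0.951 FPKM), Aurkb (0.0446 to 0.682 FPKM) and Plk1 (0.115 to 0.765 FPKM) were low in all 9 libraries. So were Birc5 (0.0326 to 0.244 FPKM), the survivin that guides Aurora B, and Cdc20 (0.191 to 1.05 FPKM), the activator of the anaphase-promoting complex. Over the 15 genes that were not tested, the median of the group means was 0.155 FPKM in LPS+EtOH, 0.237 FPKM in LPS+CPZ and 0.320 FPKM in LPS.

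The polo-like kinases Plk2 and Plk3 are known as stress-inducible genes that act outside mitosis too, and they had the highest mean levels of the 42 over all libraries. Plk2 had 213, 253 and 227 FPKM in LPS+EtOH, 305, 284 and 265 FPKM in LPS+CPZ and 132, 97.3 and 92.3 FPKM in LPS. No overlap was seen, with LPS+CPZ highest and LPS lowest. The log2 change of Plk2 was 1.12 ± 0.15 (adjusted p = 4.73e-05) in LPS+EtOH against LPS and 1.42 ± 0.15 (adjusted p = 2.02e-05) in LPS+CPZ against LPS. Plk2 in LPS+CPZ against LPS+EtOH had a log2 change of 0.30 (adjusted p = 0.0980), called without LPS replicate 1 (adjusted p = 0.0386), and -0.47 (adjusted p = 0.0469) under median-ratio scaling. Plk3 had 79.6, 78.2 and 86.4 FPKM in LPS+EtOH, 46.7, 56.5 and 55.5 FPKM in LPS+CPZ and 45.2, 39.1 and 36.5 FPKM in LPS. LPS+EtOH was the highest group for this kinase and no groups overlapped. The log2 change of Plk3 was 1.00 ± 0.13 (adjusted p = 2.15e-05) in LPS+EtOH against LPS and -0.62 ± 0.13 (adjusted p = 0.00112) in LPS+CPZ against LPS+EtOH. Plk3 in LPS+CPZ against LPS had a log2 change of 0.39 (adjusted p = 0.0180), and the call was lost without LPS+CPZ replicate 2 (0.34) or 3 (0.35), without LPS replicate 2 (0.37) or 3 (0.32), and with the globin genes left out (0.08). Plk2 stood to Plk3 at a ratio of 2.85 ± 0.336 in LPS+EtOH, 5.44 ± 0.952 in LPS+CPZ and 2.65 ± 0.243 in LPS (SD, n = 3), so the ratio was highest in the LPS+CPZ libraries.

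A further 132 genes of the cell cycle were listed, of which 131 were found and 82 were tested. In LPS+EtOH against LPS, 7 of the 82 rose and 69 fell, a share of 84.1% falls beside 64.6% of all genes, with a median log2 change of -0.91 beside -0.82 over all genes. Some of the 82, among them Lin9, Cdc25a, Rfc3, Lig1, Uhrf1 and Tk1, passed the filter through the LPS libraries alone. Their falls against LPS were therefore likely, and the shares of falls against LPS are not independent of the filter. Others, such as Cdkn1c, passed through LPS+CPZ alone. Of the 82, 11 rose and 42 fell in LPS+CPZ against LPS, which is 51.2% falls beside 48.4% of all genes, with medians of -0.42 and -0.33. Between LPS+CPZ and LPS+EtOH 62 rose and 5 fell in LPS+CPZ, which is 75.6% rises beside 61.4% of all genes, with medians of 0.60 and 0.55. As deposited, the medians of the list thus lay within 0.1 of those of all genes in each comparison. With median-ratio scaling the medians were -0.29 beside -0.08 over all genes in LPS+EtOH against LPS. They were -0.18 beside -0.08 in LPS+CPZ against LPS and 0.17 beside 0.08 in LPS+CPZ against LPS+EtOH. Under median-ratio scaling 20 rose and 41 fell in LPS+EtOH against LPS (41 of 82, where 42.1% of all genes fell), 14 rose and 32 fell in LPS+CPZ against LPS (39.0% falls beside 34.1% of all genes), and 33 rose and 16 fell in LPS+CPZ against LPS+EtOH (40.2% rises beside 35.6% of all genes).

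The list holds 23 tested G1 regulators, 36 tested genes of DNA replication and 23 tested genes of mitosis. In LPS+EtOH against LPS, 1 G1 regulator rose and 19 fell, 4 replication genes rose and 31 fell, and 2 mitosis genes rose and 19 fell, so that falls made up 82.6%, 86.1% and 82.6% of these sublists. Of all genes, 64.6% fell there. Of the G1 regulators 5 rose and 11 fell in LPS+CPZ against LPS, beside 3 rises and 20 falls of replication genes and 3 rises and 11 falls of mitosis genes. Falls were 47.8%, 55.6% and 47.8% of the sublists, beside 48.4% of all genes. The third comparison, LPS+CPZ against LPS+EtOH, had 16 rises and 1 fall of G1 regulators, 28 rises and 2 falls of replication genes, and 18 rises and 2 falls of mitosis genes. Rises were 69.6%, 77.8% and 78.3% of the sublists, beside 61.4% of all genes. With median-ratio scaling, the numbers of rises and falls in LPS+EtOH against LPS became 6 and 12 for G1 regulators, 7 and 20 for replication genes, and 7 and 9 for mitosis genes. Falls were then 52.2%, 55.6% and 39.1% of the sublists, beside 42.1% of all genes. That scaling gave LPS+CPZ against LPS 6 rises and 9 falls of G1 regulators, 4 rises and 14 falls of replication genes, and 4 rises and 9 falls of mitosis genes. These falls were 39.1%, 38.9% and 39.1% of the sublists, beside 34.1% of all genes. Median-ratio scaling gave LPS+CPZ against LPS+EtOH 11 rises and 5 falls of G1 regulators, 14 rises and 7 falls of replication genes, and 8 rises and 4 falls of mitosis genes. These rises were 47.8%, 38.9% and 34.8% of the sublists, beside 35.6% of all genes.

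The genes named next have the smallest adjusted p values of that list in each direction, apart from Cdkn1a, a tested CDK inhibitor. Dck, the kinase that salvages deoxycytidine, had the smallest among the rises of both comparisons with LPS. It averaged 68.8 ± 14.3 FPKM in LPS+EtOH, 219.5 ± 15.3 FPKM in LPS+CPZ and 23.0 ± 5.83 FPKM in LPS (SD, n = 3), with log2 changes of 1.55 (adjusted p = 2.53e-05) in LPS+EtOH against LPS and 3.22 (adjusted p = 4.58e-07) in LPS+CPZ against LPS. Tk1, the thymidine kinase of the same salvage pathway, averaged 0.186 ± 0.178 FPKM in LPS+EtOH, 0.659 ± 0.122 FPKM in LPS+CPZ and 4.77 ± 1.13 FPKM in LPS. It fell by 1.78 on the log2 scale in LPS+CPZ against LPS (adjusted p = 5.64e-06). Only the LPS libraries reached 1 FPKM of Tk1, so this call was likely. Btg1, an antiproliferative gene, averaged 481 ± 20.9 FPKM in LPS+EtOH, 492 ± 15.1 FPKM in LPS+CPZ and 228 ± 34.9 FPKM in LPS, and rose in both comparisons with LPS (1.08 and 1.11). Mcm10, which helps to activate the helicase, rose by 0.92 in LPS+EtOH against LPS (adjusted p = 3.47e-04), while Pole4, a small subunit of DNA polymerase epsilon, changed by -2.93 (adjusted p = 1.54e-07). The anaphase-promoting complex subunits Anapc1 (-2.00) and Anapc5 (-2.16) also fell there. Anapc5 (-1.36) and Mcmbp (-1.30), an MCM-binding protein, fell in LPS+CPZ against LPS.

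Cdkn2b, the INK4 inhibitor p15, averaged 5.52 ± 1.33 FPKM in LPS+CPZ, 0.467 ± 0.184 FPKM in LPS+EtOH and 2.02 ± 0.484 FPKM in LPS. It rose by 2.14 in LPS+CPZ against LPS+EtOH (adjusted p = 3.81e-06), a direction opposite to that of the INK4 gene Cdkn2d (-2.49). Cdkn1c, the CIP/KIP inhibitor p57, averaged 1.55 ± 0.177 FPKM in LPS+CPZ and 0.294 ± 0.0638 FPKM in LPS, and rose by 0.98 (adjusted p = 9.04e-06). Only the LPS+CPZ libraries reached 1 FPKM of Cdkn1c, so this call was likely. Fzr1 (1.22), an activator of the anaphase-promoting complex, and Cdk7 (1.28), the kinase that activates other CDKs, rose in LPS+CPZ against LPS+EtOH. Pola2 (-1.03), a subunit of DNA polymerase alpha, Cks2 (-1.41), a CDK-binding protein, and Cdc27 (-0.39), another subunit of the anaphase-promoting complex, fell there. The calls of these 5 genes and of Cdkn2b in LPS+CPZ against LPS+EtOH were made in the same direction under median-ratio scaling. In LPS+EtOH against LPS, however, Cdk7 was called lower as deposited (-0.59, adjusted p = 6.62e-04) and higher under median-ratio scaling (0.29, adjusted p = 0.0161).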

How the data were processed

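The authors deposited a table of FPKM per gene (scaled by transcript length and by mapped fragments), from strand-specific TruSeq libraries sequenced on an Illumina NovaSeq, per the labels' protocols. STAR, StringTie and FastQC 0.11.2 were used, per the submitters' processing notes. These notes also name the human build hg38, although 55154 of the 55335 gene IDs were found in mouse GENCODE M21. Whole fragments could not be recovered, because no more than 29.9 to 34.9% of the low values came within 2% of whole multiples of their commonest step, so the depth is unknown.

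A gene was tested if 3 or more libraries held 1 FPKM or more (11721 genes). A single limma 3.58.1 model (R 4.3.3) of log2(FPKM + 1) on group took in all 9 libraries and left 6 residual degrees of freedom, with eBayes and its trend option. Two-sided p-values were adjusted by Benjamini-Hochberg and called under 0.05. This scale understates fold changes of low genes. The test was tried on simulated data first. Alternatives were median-ratio scaling, leaving out the globin genes, a pseudocount of 0.1, no filter, the groups compared alone, the replicate number as a block, and leaving out each library. Same-numbered libraries had correlated deviations over 0.1 in 3 of 9 pairs (-0.01 to 0.26), beside -0.20 to 0.13 for differently numbered ones. These values do not settle whether the numbers pair libraries, and the labels do not say so. The main model therefore took no pairing, and the replicate block was an alternative. Values in every library are given for tested members that changed in at least 1 comparison and reached a mean of 1 FPKM in a group. From the other cell cycle genes, up to 3 per direction and comparison with the smallest adjusted p are named, besides the tested CDK inhibitors. The members and lists were chosen with earlier results of these data known. Tables and plots were made in Python 3.11.15 with pandas 2.3.3, matplotlib 3.10.9 and numpy 2.4.6. A further macrophage marker on the list is not reported here.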

Additional observations from a re-analysis of the deposited data

How the results depend on the processing

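The counts of changed genes stayed within 1.5 times under every alternative tried. Over the libraries left out in turn, the count among the 27 tested genes was 25 to 26 in LPS+EtOH against LPS, 18 to 20 in LPS+CPZ against LPS and 17 to 20 in LPS+CPZ against LPS+EtOH. Leaving out the globin genes moved the split of all genes in LPS+CPZ against LPS to 1742 rises and 6984 falls, beside 2432 and 5674. With the replicate number as a block, although the numbers were not shown to pair libraries, these counts were 25, 19 and 19, beside 25, 20 and 18 without it, and Ccnd3 in LPS+CPZ against LPS (-0.40, adjusted p = 0.0508) lost its call while Mcm5 in LPS+CPZ against LPS+EtOH (0.34, adjusted p = 0.0275) gained one. Of 1215 recomputed log2 changes, 1144 kept direction and call, and 18 changed sign, whatever their call. Of those that kept their sign, 33 lost a call and 20 gained one.

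Under median-ratio scaling the sign turned for Mki67 in LPS+EtOH against LPS (0.62), for Ccne1 (0.00593), Cdk6 (0.11) and Cdkn2d (0.0196) in LPS+CPZ against LPS, and in LPS+CPZ against LPS+EtOH for Cdkn2c (-0.31), E2f3 (-0.33), Mcm4 (-0.0624), Mcm5 (-0.11), Mcm6 (-0.38), Pcna (-0.0815) and Plk2 (-0.47). With the globin genes left out it turned for Cdkn2c in LPS+EtOH against LPS (-0.0515) and Cdc6 in LPS+CPZ against LPS (-0.00735), and Ccne1 (-0.44), Cdk6 (-0.41) and Mcm2 (-0.50) in LPS+CPZ against LPS and Mki67 in LPS+EtOH against LPS (-0.52) gained calls. Leaving out single libraries gave -0.0253 to 0.23 for Cdkn2c in LPS+EtOH against LPS, -0.28 to 0.0285 for Cdk6 and -0.55 to 0.00242 for Cdkn2d in LPS+CPZ against LPS, and -0.0175 to 0.21 for Cdkn2c in LPS+CPZ against LPS+EtOH. The cause of these turns was not tested. FPKM carry no counting error here, and 15 of the 42 genes lay too low for a test.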

Other observations

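LPS replicate 1 differed from the other LPS libraries in several of the genes described. It had 41.7 FPKM of Ccnd2, against 72.3 and 59.3 FPKM in LPS replicates 2 and 3, and a mean of 5.08 FPKM over Mcm2 to Mcm7, against 6.35 and 6.28 FPKM. Its Cdkn2d level was 15.6 FPKM, against 6.73 and 10.7 FPKM, and its Mki67 level was 6.38 FPKM, against 3.36 and 4.53 FPKM. The B cell markers summed to 461 FPKM in it, against 615 and 695 FPKM in the other LPS libraries. LPS replicate 3 stood further apart in markers of other cells, with 131 FPKM of Ngp, against 4.62 and 5.56 FPKM in LPS replicates 1 and 2, 13.0 FPKM of Camp, against 0.920 and 1.14 FPKM, and 199 FPKM of Retnlg, against 76.5 and 76.0 FPKM. Globin took 29.4% of its FPKM, against 16.7 and 11.5%. Without LPS replicate 3, among the 27 tested genes, Ccnd3 (-0.38), Pcna (-0.40) and Plk3 (0.32) lost their calls in LPS+CPZ against LPS and Cdkn1b (0.47) gained one. With 3 libraries a group, no test for an outlying library was run.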
